A study of Mus musculus with 10 samples.

Results

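The genes examined here are 39 transcription regulators that define blood stem cells or direct their descendants into a lineage. They were taken by name, with earlier results of these data known. A set of 12 were stem cell factors (Runx1, Tal1, Meis1, Mecom, Hlf, Erg, Fli1, Gfi1, Gfi1b, Etv6, Lyl1 and Lmo2), and 27 were lineage factors, of which 19 were grouped as lymphoid, 7 as myeloid and 1, Klf1, as erythroid. The grouping goes by a role in blood and does not mean that a gene acts there only. All 39 were found among the 55450 annotated genes, 21951 of them protein-coding. Peaks of the histone mark H3K27me3 were assigned to a gene where they touched its body or its promoter, the stretch reaching back 5 kb from a transcription start site (TSS) and forward 100 bp, taken for each TSS annotated on GRCm38.

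The mark was profiled by CUT&Tag, in which an antibody tethers a transposase to chromatin so that the sequenced fragments lie where the mark is. The cells were LT-HSCs sorted as LSK CD48-CD150+ from fetal liver at E14.5, in 3 libraries of IκBα wild-type (WT) embryos and 3 of IκBα knockout (KO) embryos. IκBα is encoded by Nfkbia and restrains NF-κB. The methods name the targeted knockout line Nfkbia tm1Bal, whose deletion is not limited to blood cells. No treatment is named in the labels. Replicates 1 and 2 of both genotypes were sequenced as 75 bp reads and replicate 3 as 50 bp reads. The labels do not say which embryos or litters supplied each library, and the study calls the replicates independent in one place and in another names fewer independent experiments than libraries per genotype, so whether libraries share an experiment is not settled here. The p-values below measure the spread between these libraries only. CUT&Tag for IκBα in 4 further samples was not analysed here.

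H3K27me3 is laid down by polycomb repressive complex 2 (PRC2) and is found over promoters of developmental regulators that are silent, mostly where the DNA is rich in CpG. In a blood stem cell the factors that sustain self-renewal are in use, whereas many factors of later lineages are not. Several of the genes belong to small families whose members act at different steps, so paralogs can be compared directly.

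WT replicates 1, 2 and 3 held 4160, 6013 and 1047 peaks, and KO replicates 1, 2 and 3 held 4904, 5157 and 2325. WT replicate 3 stood apart, with a median total signal of 4303 per peak against 10398 to 13972 in the other 5 libraries, and cover, peaks and signal of the members are given per library for that reason. A peak is one of the strongest stretches of its own library, so a gene without one had no stretch strong enough to be called, and the mark may still be there. Nfkbia had no peak at its promoter or body in any library, so the peaks do not check the genotype. No RNA was measured in these libraries.

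To show what these promoters look like, the 200 bases upstream of a TSS are printed below, 5′ to 3′ on the coding strand of GRCm38 (RefSeq sequence), for 4 lineage factors with a promoter peak and 4 regulators without one. They include the paralog pairs Klf4 and Klf1, Runx3 and Runx1, and Ikzf3 and Ikzf1. Capitals mark each CG dinucleotide, the letters that PRC2 targets tend to be rich in, and each window lies outside annotated exons. Where a gene had more such windows, the one with the most CG is shown, so it need not be typical of the gene. The Runx1 window belongs to a TSS 128821 bp inside the gene.
Egr2 (chr10:67535275-67535474, plus strand): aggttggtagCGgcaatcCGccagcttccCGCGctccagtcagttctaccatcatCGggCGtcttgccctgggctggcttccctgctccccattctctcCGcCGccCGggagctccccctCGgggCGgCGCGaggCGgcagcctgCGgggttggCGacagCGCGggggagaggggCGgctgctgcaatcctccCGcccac
Klf4 (chr4:55532467-55532666, minus strand): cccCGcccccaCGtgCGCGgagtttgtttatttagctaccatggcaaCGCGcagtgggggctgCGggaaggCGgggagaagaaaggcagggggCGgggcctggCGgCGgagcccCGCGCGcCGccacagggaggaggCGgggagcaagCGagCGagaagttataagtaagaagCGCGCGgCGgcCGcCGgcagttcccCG
Runx3 (chr4:135152296-135152495, plus strand): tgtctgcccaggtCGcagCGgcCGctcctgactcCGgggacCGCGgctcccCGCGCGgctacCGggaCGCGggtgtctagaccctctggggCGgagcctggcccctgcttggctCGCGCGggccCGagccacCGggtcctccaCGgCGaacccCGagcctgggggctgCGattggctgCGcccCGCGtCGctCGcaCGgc
Ikzf3 (chr11:98546032-98546231, minus strand): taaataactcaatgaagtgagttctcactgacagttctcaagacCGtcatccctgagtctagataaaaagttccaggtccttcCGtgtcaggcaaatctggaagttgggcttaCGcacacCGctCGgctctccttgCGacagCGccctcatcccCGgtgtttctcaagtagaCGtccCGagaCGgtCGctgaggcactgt
Runx1 (chr16:92697329-92697528, minus strand): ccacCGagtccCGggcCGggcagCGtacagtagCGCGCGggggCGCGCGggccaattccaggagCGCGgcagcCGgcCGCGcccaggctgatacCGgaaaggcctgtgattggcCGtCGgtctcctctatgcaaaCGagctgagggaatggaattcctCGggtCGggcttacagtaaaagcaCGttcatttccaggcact
Tal1 (chr4:115057611-115057810, plus strand): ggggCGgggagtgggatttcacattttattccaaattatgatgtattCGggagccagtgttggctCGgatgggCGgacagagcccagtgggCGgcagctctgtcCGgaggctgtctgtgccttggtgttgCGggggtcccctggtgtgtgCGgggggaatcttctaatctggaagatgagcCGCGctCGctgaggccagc
Ikzf1 (chr11:11685725-11685924, plus strand): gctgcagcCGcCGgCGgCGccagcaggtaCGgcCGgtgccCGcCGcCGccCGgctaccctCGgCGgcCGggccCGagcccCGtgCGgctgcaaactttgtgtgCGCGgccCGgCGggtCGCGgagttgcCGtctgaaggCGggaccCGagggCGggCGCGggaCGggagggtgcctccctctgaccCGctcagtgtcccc
Klf1 (chr8:84901728-84901927, plus strand): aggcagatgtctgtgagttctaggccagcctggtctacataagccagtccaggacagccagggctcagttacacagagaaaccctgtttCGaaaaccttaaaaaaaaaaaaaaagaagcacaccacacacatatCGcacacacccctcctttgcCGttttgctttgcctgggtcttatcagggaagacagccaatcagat
The windows of Runx1 and Ikzf1, without a peak in any library, held 22 and 30 CG, and those of Klf4 and Egr2 held 25 and 20. Those of Runx3, Ikzf3 and Tal1 held 28, 12 and 11. Peaks touched the Klf4 window in all 6 libraries and the Egr2 window in 5, and those of Runx3 and Ikzf3 in 2 each. The Klf1 window held 3 CG. Among 19938 protein-coding genes with a window chosen the same way, the median was 6 CG, and 90.5% held at least 1, 38.7% at least 10 and 13.5% at least 20. In these windows, chosen as the richest in CG of each gene, high counts were thus seen at members with and without a peak.

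The first question was which of these regulators are held by the mark in WT LT-HSCs. A gene was called where at least 2 of the 3 libraries of a genotype had a promoter peak. By that measure 14 of the 39 members were called in WT, against 5.6% of all annotated genes and 10.1% (2214 of 21951) of protein-coding genes. The lineage factors supplied 13 of the 14 (of 27), and the stem cell factors supplied 1 (of 12), the ETS factor Erg. The lymphoid share was 11 of 19, the myeloid share 2 of 7, and the erythroid factor Klf1 had no peak. The stem cell count was near the share of all protein-coding genes and is not a result about those genes, whereas the lineage count lay well above that share. Because the genes were chosen with earlier results of these data known, that excess is a description and was not tested. Without WT replicate 1 or WT replicate 2, when both remaining WT libraries had to hold a peak, the WT count was 6 members, 6 lineage factors and 0 stem cell factors. By the same rules the share of protein-coding genes called also fell, to 3.3% and 3.08%.

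The same order held in each library. Of the 27 lineage factors, 14, 16 and 6 had a promoter peak in WT replicates 1, 2 and 3, and 14, 15 and 14 in the KO replicates. Of the 12 stem cell factors, the numbers were 1, 1 and 0 in WT and 1, 1 and 1 in KO, and it was Erg each time. Protein-coding genes as a whole had a promoter peak in 10.6%, 13%, 3.5%, 12.9%, 12.2% and 8.11% of cases in the same order of libraries. Even WT replicate 3, with its few peaks, kept 5 of 19 lymphoid factors and 1 of 7 myeloid factors above its peak limit.

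**Figure D1:**
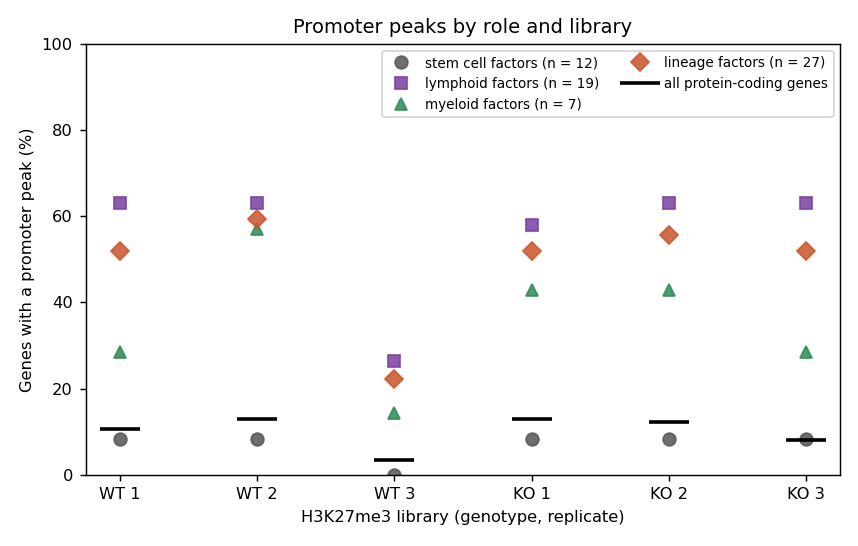
Share of genes with an H3K27me3 promoter peak (y axis, %) in each of the 6 libraries (x axis), for the stem cell factors, the lymphoid and myeloid factors, all lineage factors and all protein-coding genes (black bars). Lineage factors sit above the bar in every library, and the stem cell factors sit at or below 8.33% throughout.

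Peaks at the 12 stem cell factors were at Erg and Gfi1 only. Runx1, needed for blood to arise from endothelium, the basic helix-loop-helix paralogs Tal1 and Lyl1, which pair with E proteins, and Lmo2, an adaptor in their complexes, had none at the promoter or body in any library. The same was true of the homeodomain factor Meis1, the zinc finger factor Mecom, the leucine zipper factor Hlf, the ETS factors Fli1 and Etv6 and the zinc finger repressor Gfi1b. Its paralog Gfi1 had a single peak in KO replicate 1, 3251 bp wide and inside the gene, which did not reach a promoter window. In all, 2 of the 12 had a peak at promoter or body in at least 1 library, a share close to the 17.6% of protein-coding genes, and 10 had none. For these 10 the nearest peak of any library lay a median of 111116 bp away, from 11423 bp at Fli1 to 2059055 bp at Meis1. Runx1 was 99444 bp from the nearest peak, Tal1 61412 bp and Lmo2 381826 bp.

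Window size differed between the groups. The stem cell factors had a median of 5 TSSs and 11973 bp of promoter window, against 3 TSSs and 6543 bp for the lineage factors and 3 TSSs and 7912 bp for all protein-coding genes. Of their 67 TSSs, 1 lay inside a peak in any library, against 55 of the 103 TSSs of the lineage factors and 9.43% of the 93526 TSSs of protein-coding genes. TSSs of a gene share its peaks, so these counts are a description beside the gene counts.

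Erg (chr16:95359169-95586593), an ETS factor of stem cells and endothelium, was the exception. Its peak was 5505 bp and 2493 bp wide in WT replicates 1 and 2, missing from WT replicate 3, and 6952, 2162 and 2430 bp wide in the KO replicates. Each covered the TSS at the 5′ end of the gene (chr16, 95586593) and extended mainly into the first part of the body. The other 5 TSSs, from 56228 to 127348 bp further into the gene, were in no peak. The covered part of the promoter window was small, at 4.73%, 1.67% and 0% in WT and 14.3%, 2.02% and 1.302% in KO. Erg was therefore marked at 1 of its 6 start sites, in both genotypes, and the groups overlapped.

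**Figure D2:**
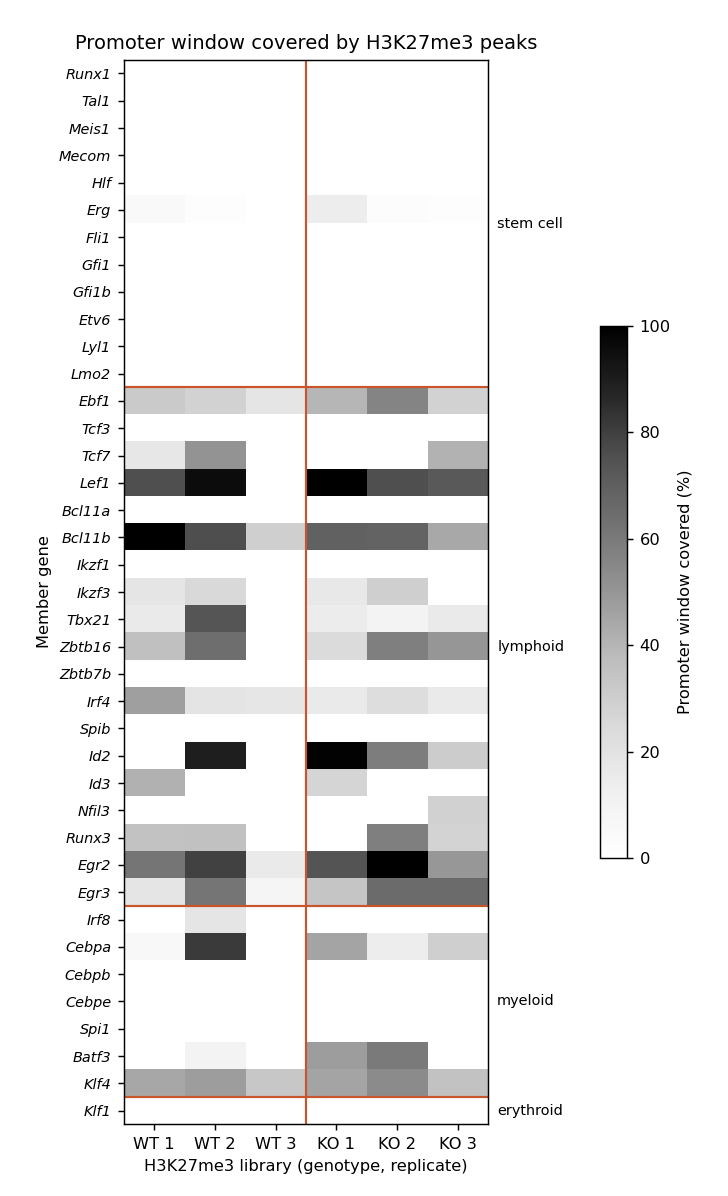
Share of the promoter window covered by H3K27me3 peaks (grey scale, %) for the 39 member genes (rows, in blocks of stem cell, lymphoid, myeloid and erythroid factors) in the 3 WT and 3 KO libraries (columns). The stem cell block is white apart from faint cells at Erg, the dark rows are Lef1, Bcl11b, Egr2 and Id2, and WT replicate 3 is the palest column.

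Among the lymphoid factors, 5 had a promoter peak in all 6 libraries, namely Ebf1, Bcl11b, Irf4, Egr2 and Egr3. Klf4, a Krüppel-like factor of monocytes, was the only myeloid factor to do so. Such peaks in all 6 libraries were present at 2.66% of protein-coding genes.

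Egr2 and Egr3 encode zinc finger factors induced by antigen receptor signals in lymphocytes. The Egr2 window (gene at chr10:67535475-67542188) was covered over 61.4%, 79.3% and 15.5% in WT and 73.8%, 100% and 49.5% in KO. In WT replicate 2 and KO replicate 2 a single peak, 11224 and 12785 bp wide, took in all 6 TSSs. The Egr3 window (gene at chr14:70077203-70082614) was covered over 18.5%, 61.7% and 8.18% in WT and 33.7%, 65.3% and 65.5% in KO. Both genes had their lowest cover in WT replicate 3. The TSS at the 5′ end of Egr2 lay in a peak in 2 WT and 3 KO libraries, and that of Egr3 in 1 WT and 3 KO libraries, while the Egr3 TSS 1536 bp further in was in a peak in all 6. With the gene 5′ end as the only start site, Egr3 was called in KO alone.

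Ebf1 (chr11:44617317-45008091), the early B cell factor, carried a pair of peaks in every library. The first lay upstream, ending 2675 to 3328 bp before the TSS at the 5′ end of the gene, and was 1426 to 4445 bp wide. The second lay around or just beyond that TSS, but its edges moved, and it held that TSS in 1 WT library and 2 KO libraries. Its window was covered over 31.6%, 28.0% and 18.7% in WT and 39.6%, 56.0% and 28.1% in KO. By its edges, the upstream peak varied less than the second.

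Bcl11b (chr12:107910403-108003602), a factor of T cell commitment, was marked far into its body. Its promoter window was covered over 100%, 76.0% and 29.1% in WT and 68.9%, 68.3% and 43.8% in KO. WT replicates 1 and 2 had 2 and 4 further peaks wholly inside the gene, and KO replicates 1 and 2 had 3 and 4. The widest of these measured 11177 bp, with its centre 22182 bp from the 5′ end, in WT replicate 1. The replicate 3 libraries of both genotypes had the promoter peak alone. Intragenic marking was therefore seen in replicates 1 and 2 of each genotype and not in replicate 3.

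Irf4 (chr13:30749226-30766976), needed for plasma cells and activated lymphocytes, is a member of intermediate CpG content, and both of its TSSs lay in a peak in all 6 libraries. Its window was covered over 47.1%, 18.8% and 17.6% in WT and 15.5%, 22.9% and 15.5% in KO, with the rest of each peak reaching into the gene. Its myeloid relative Irf8, a factor of monocytes and dendritic cells, had a promoter peak in WT replicate 2 alone.

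**Figure D3:**
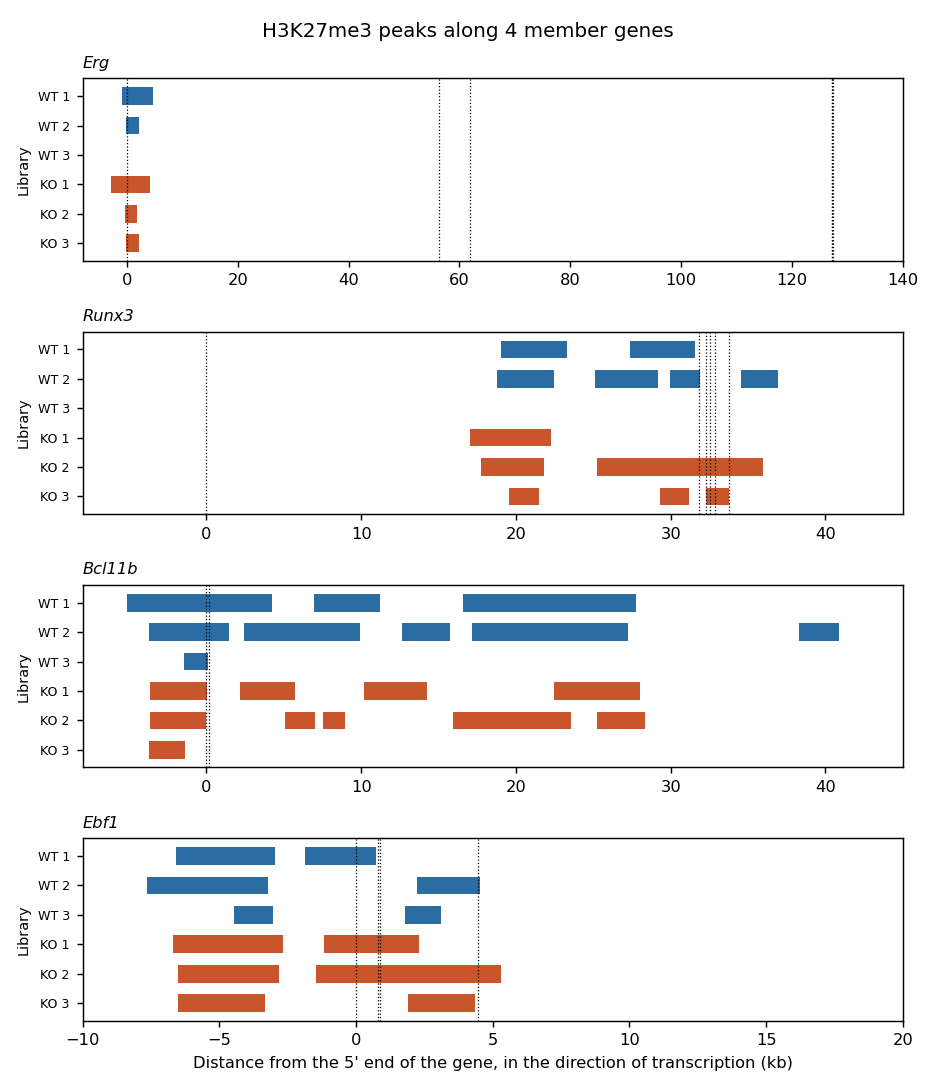
H3K27me3 peaks along Erg, Runx3, Bcl11b and Ebf1 as bars against the distance from the 5′ end of the gene in kb (x axis), for the WT (blue) and KO (orange) libraries, with dotted lines at the annotated TSSs. Erg is marked only around its first TSS, Runx3 has no bar near its first TSS and bars further in, Bcl11b far into the body in replicates 1 and 2, and Ebf1 upstream and around the start.

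Tcf7 and Lef1 encode the HMG-box factors of early T cells. Lef1 had a promoter peak in all libraries but WT replicate 3, and its window was covered over 75.7%, 95.6% and 0% in WT and 100%, 75.4% and 72.0% in KO. In width, the Lef1 peak of KO replicate 1 reached 13368 bp, and it had 4.77 times the median total signal of that library. Tcf7 was fainter, with cover of 17.2%, 51.0% and 0% in WT and 0%, 0.216% and 40.7% in KO. In KO replicate 2 the Tcf7 peak entered the window by 12 bp only, and in KO replicate 1 it lay wholly in the body.

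Tbx21, the T-bet gene of type 1 lymphocytes, and Zbtb16, the PLZF gene of innate-like lymphocytes, had a promoter peak in 5 libraries each, with WT replicate 3 the one without. Tbx21 was covered over 15.5%, 73.6% and 0% in WT and 14.55%, 9.41% and 15.7% in KO. Zbtb16 was covered over 36.1%, 64.2% and 0% in WT and 23.7%, 57.8% and 50.0% in KO. In those libraries a peak took in the single TSS of Tbx21 or both TSSs of Zbtb16. WT replicate 2 had a further Tbx21 peak upstream, 2416 bp from the TSS. Another Tbx21 peak near the 3′ end of the gene was called in KO replicates 2 and 3, where its centre lay 16272 and 16676 bp from the TSS.

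Ikzf3, which encodes Aiolos and acts in B cells, had a peak in replicates 1 and 2 of both genotypes, with cover of 18.7% and 24.8% in WT and 16.7% and 29.5% in KO. In WT these peaks stopped 401 and 278 bp short of the nearest TSS, and in KO they held 2 of the 4 TSSs. The promoter of the neighbouring gene Zpbp2 was covered by the same peak in all 4 libraries, so the peak cannot be assigned to Ikzf3 alone.

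Runx3, a factor of CD8 T cells, was marked away from its first promoter. The TSS at the 5′ end was in no peak, and the promoter peaks lay in the windows of the downstream start sites 31844 to 33784 bp into the gene in WT replicates 1 and 2 and KO replicates 2 and 3. An intragenic peak with its centre 19642 to 21160 bp from the 5′ end was called in those 4 libraries and in KO replicate 1. The distal promoter was thus unmarked while the proximal one was marked, in 4 of 6 libraries.

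Id2 and Id3 encode proteins that bind E proteins and keep them from DNA. Id2 had a promoter peak in WT replicate 2 and in all 3 KO libraries, with cover of 0%, 89.6% and 0% in WT and 98.8%, 58.8% and 30.5% in KO. Id3 had one in replicate 1 of each genotype, over 41.0% and 26.6% of its window. Nfil3, needed for innate lymphoid cells, had a promoter peak in KO replicate 3 alone and a body peak in WT replicate 2. The E protein gene Tcf3, which Id proteins restrain, had no peak in any library.

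Of the myeloid factors, Cebpa, which directs granulocyte and monocyte fate, had a promoter peak in 5 libraries, with cover of 5.42%, 81.4% and 0% in WT and 45.5%, 14.1% and 29.1% in KO. Klf4 (chr4:55527143-55532466) was covered over 44.2%, 47.3% and 33.1% in WT and 45.6%, 53.9% and 35.2% in KO, with WT replicate 3 close to KO replicate 3. Batf3, a factor of type 1 dendritic cells, had peaks in WT replicate 2 and in KO replicates 1 and 2, with cover of 9.46%, 47.6% and 59.8%. Spi1, which encodes PU.1, Cebpb and Cebpe had no peak at promoter or body in any library.

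The lineage factors with no promoter peak at all numbered 9 of 27, whereas 3481 of 21951 protein-coding genes had such a peak in at least 1 library and the rest had none. Besides Tcf3, Spi1, Cebpb and Cebpe they were Ikzf1 (Ikaros), Bcl11a, Zbtb7b (the ThPOK gene of CD4 T cells), Spib and the red cell factor Klf1. Their nearest peak in any library lay a median of 68892 bp away. Spib had a peak ending 356 bp from its gene in KO replicate 1, and Klf1 one 4554 bp away in KO replicate 2, whereas at Bcl11a the distance was 1433856 bp.

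Paralogs were set side by side. Since 19 of the 39 members had a promoter peak in at least 1 library (against 3481 of 21951 protein-coding genes), many pairs of members would be divided whichever way they were paired. Of the 15 pairs compared, 8 had one member with a promoter peak in at least 1 library and the other with none. Runx3, Bcl11b, Ikzf3, Klf4 and Zbtb16 had peaks in 4, 6, 4, 6 and 5 libraries, and their partners Runx1, Bcl11a, Ikzf1, Klf1 and Zbtb7b in 0. Cebpa, with peaks in 5 libraries, divided in the same way from Cebpb and from Cebpe, and Erg from Fli1. Both members had a peak in 4 pairs (Tcf7 and Lef1, Irf4 and Irf8, Id2 and Id3, Egr2 and Egr3), and neither had one in 3 (Gfi1 and Gfi1b, Tal1 and Lyl1, Spi1 and Spib). The pairs share genes and are a description, with no test.

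CpG content was set beside the calls, since the mark is known for CpG-rich promoters. A promoter was classed as high where a 500 bp window from 900 bp upstream to 400 bp downstream of any TSS had a CpG observed/expected ratio above 0.75 and a GC content above 55%, as low where no window exceeded 0.48, and otherwise as intermediate. The lineage factors had 20 genes of high, 4 of intermediate and 3 of low class, and those called in WT were 12, 1 and 0 of these. Among all protein-coding genes the WT call was made at 14%, 12.7% and 1.73% of the high, intermediate and low classes, and the KO call at 15.9%, 14.6% and 2.04%. The stem cell factors had 7 genes of high, 4 of intermediate and 1 of low class, and 0 of the 7, 1 of the 4 and 0 of the 1 were called in WT. The highest ratios of Tal1 (1.01), Etv6 (1.06), Tcf3 (1.07), Ikzf1 (1.09) and Cebpb (1.18), all without a peak, were similar to those of Egr2 (0.970), Klf4 (1.06) and Ebf1 (1.18). Going the other way, the members of low class, Klf1 (0.156), Spib (0.249), Cebpe (0.424) and Lyl1 (0.453), also had no peak. Whether CpG content accounts for the calls was not tested.

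**Figure D4:**
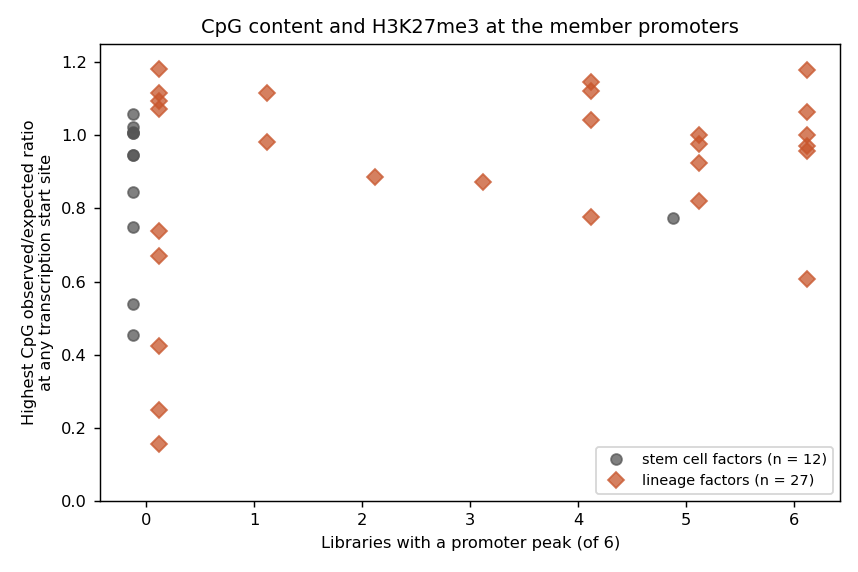
Highest CpG observed/expected ratio in a 500 bp window at any TSS (y axis) against the number of libraries with a promoter peak (x axis, 0 to 6), 1 point per gene, for the 12 stem cell and the 27 lineage factors (shifted sideways for view). At 0 libraries the points run from 0.156 at Klf1 to 1.18 at Cebpb, and Irf4 (0.606) is the lowest point at 6 libraries.

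Strength of the peaks at member promoters varied between libraries. Their median total signal was 1.16, 1.297 and 0.863 times the library median in the WT replicates and 1.52, 1.19 and 1.08 times in the KO replicates. Above the library median were 11 of 17, 15 of 20 and 2 of 7 of them in WT and 14 of 17, 12 of 19 and 10 of 18 in KO. Of the 98 overlaps of a promoter peak with a member, 76 held a TSS of that gene.

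The second question was whether the loss of IκBα changes which of these genes are held. In KO, 16 of the 39 members were called, against 6.44% of all annotated genes and 2528 of the 21951 protein-coding genes, with 15 lineage factors (12 lymphoid, 3 myeloid) and again Erg. All 14 members called in WT were called in KO, a nesting that rested on single libraries. The KO call of Tcf7 used the 12 bp overlap in KO replicate 2, and 2 members (Tcf7 and Runx3) became calls of WT alone without KO replicate 3, 1 (Ikzf3) without KO replicate 1, and 3 (Tcf7, Ikzf3 and Runx3) without KO replicate 2. Id2 and Batf3 were called in KO and not in WT, a difference present at 2.32% of protein-coding genes, and 0 members were called in WT alone, against 0.888%. Both genes had a peak in WT replicate 2, so neither was free of the mark in WT. Without WT replicate 1 or WT replicate 2, 10 members were called in KO alone, but by the same rules so were 8.34% and 8.51% of protein-coding genes. Without KO replicate 1 or KO replicate 2 it was 1, Id2, against 0.733% and 0.82%. The shares of protein-coding genes called in WT alone without KO replicates 1, 2 and 3 were 3.44%, 3.22% and 285 of 21951.

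The share of the promoter window covered was compared for the 19 members with a promoter peak in any library. The KO mean was above the WT mean at 13 and below it at 6, with a median difference of 3.73 percentage points, against 3.18 over all 5048 genes with such a peak. In 0 of the 19 were the WT and KO libraries apart, whereas 2.46% of the 5048 genes had every KO library above every WT library and 0.099% the reverse. The lowest p among the members was 0.2 (exact two-sided permutation test over 20 assignments, for which 3 against 3 cannot go below 0.1), and the adjusted p was 1 for each. At Egr3 the mean was 29.5% ± 28.4 (SD, n = 3) in WT and 54.8% ± 18.3 (SD, n = 3) in KO, with an exact permutation p = 0.2. At Ebf1 it was 26.1% ± 6.67 against 41.2% ± 14.0 (SD, exact permutation p = 0.2, n = 3 each), and at Batf3 3.15% ± 5.46 against 35.8% ± 31.6 (SD, exact permutation p = 0.4, n = 3 each). The widest difference was at Id2, with 29.9% ± 51.7 in WT and 62.7% ± 34.3 in KO (SD, exact permutation p = 0.5, n = 3 each). In the other direction, Tbx21 stood at 29.7% ± 38.8 against 13.2% ± 3.34 (SD, exact permutation p = 0.8, n = 3 each), Irf4 differed by -9.89 and Tcf7 by -9.10 percentage points. At all of these genes the ranges of the genotypes overlapped. Taken by same-numbered libraries, the cover was higher in KO in all 3 pairs at Erg, Ebf1, Egr2, Egr3 and Klf4 (5 of 19, against 11.3% of the 5048 genes) and lower in all 3 at 0 (against 0.911%), with an exact sign-flip p of 0.25, the smallest that 3 pairs allow.

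Signal was compared where all 6 libraries had a peak. The value is the sum over the peaks called inside a merged region, so signal outside the calls is missing from it, and it moves with called width and with splitting of peaks. Of 718 such regions, 7 lay over members, at Egr2, Bcl11b, Irf4, Egr3 and Klf4 and a pair at Ebf1. On the scale of log2 total signal relative to the library's median over these regions, Egr3 stood at -1.07, -0.40 and -0.26 in WT and -0.49, -0.02 and 0.93 in KO. Bcl11b stood at 0.81, 0.81 and -0.33 in WT and 0.09, 0.03 and -0.46 in KO, and at both genes the genotypes overlapped. By same-numbered pairs, Bcl11b was lower in KO in all 3, as were 16% of the 718 regions, and Egr3, Irf4 and Klf4 were higher in all 3, as were 10.2%. The KO minus WT difference was 0.72 ± 0.42 (SE) at Egr3 and -0.54 ± 0.39 at Bcl11b. The other regions also overlapped. Egr2 stood at 0.24, 0.04 and 0.06 in WT and 0.16, 0.55 and 0.79 in KO on the same log2 scale, and Irf4 at -0.58, -1.06 and -0.42 against -0.52, -0.88 and -0.12. Klf4 stood at -1.85, -1.36 and -0.01 in WT and -1.39, -0.83 and 0.04 in KO. At Ebf1, the upstream region stood at -0.89, -0.94 and -0.34 against -0.86, -0.88 and -0.52, and the start at -1.67, -2.25 and -0.45 against -1.41, -0.51 and -1.01. The KO minus WT difference was 0.39 ± 0.32 (SE) at Egr2, 0.18 ± 0.34 at Irf4, 0.35 ± 0.52 at Klf4, -0.03 ± 0.32 at the upstream Ebf1 region and 0.48 ± 0.47 at the Ebf1 start. All 7 had an adjusted p of 0.993 in limma. Over the 718 regions, 0 passed an adjusted p of 0.05 in either direction (0% called), and 8 (1.11%) had an unadjusted p under 0.05, none of them over a member.

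**Figure D5:**
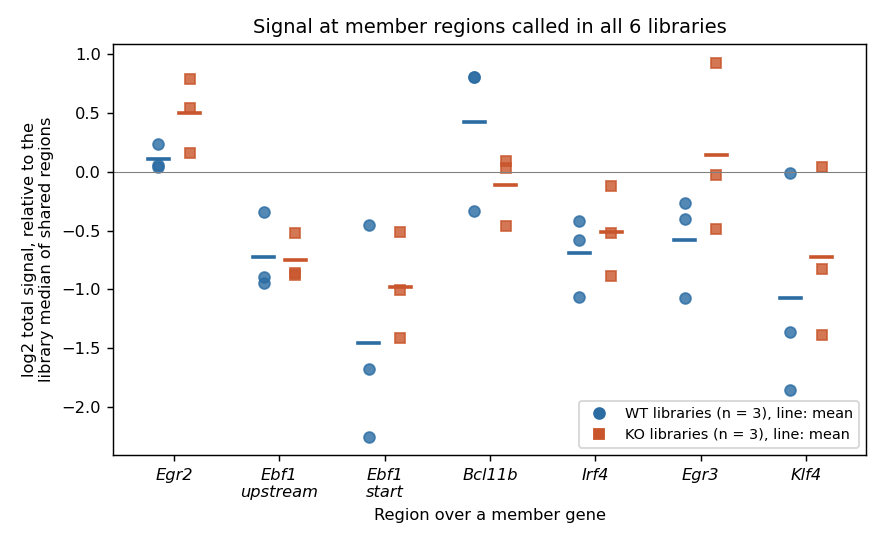
Total signal on the log2 scale relative to the library median of shared regions (y axis) at the 7 member regions called in all 6 libraries (x axis), 1 point per library, WT circles and KO squares, with lines at the group means (n = 3 each). WT and KO points overlap at every region, and the widest difference of means is the 0.72 at Egr3.

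Other blood regulators from a wider list were examined in the same way. Of 20 further stem cell regulators, 3 were called in WT (Prdm16, Sox17 and Nr4a2) and 4 in KO (with Hoxa9). Among those without a promoter peak in any library was Gata2, a zinc finger factor of stem cells. Of 17 further lineage factors, 5 were called in WT (Pax5, Gata3, Eomes, Prdm1 and Tox2) and 4 in KO, where Prdm1 had a peak in replicate 1 alone. Protein-coding genes as a whole were called in 10.1% of cases in WT and in 2528 of 21951 in KO. By library, the further lineage factors had the higher share in all 6, with 5, 7 and 3 of 17 in WT and 6, 4 and 4 of 17 in KO, against 4, 4 and 0 of 20 and 6, 3 and 2 of 20 for the further stem cell regulators. By library the order was thus that of the members, with a smaller gap, while by the KO call both lists had 4 genes. The further stem cell regulators had a promoter peak in 20%, 20% and 0% of cases in WT and 30%, 15% and 10% in KO. Apart from WT replicate 3, these lay above the shares of protein-coding genes, so a low share of stem cell factors was not repeated. The difference between the lists was not tested. Pax5, the B cell commitment factor, was covered over 49.3%, 55.5% and 6.91% in WT and 48.9%, 51.0% and 41.0% in KO. Eomes, a T-box factor of natural killer and memory T cells, was covered over 72.5%, 76.6% and 15.3% in WT and 74.7%, 63.9% and 31.6% in KO. Gata1, the red cell factor, had no promoter peak in any library, as was the case for Klf1.

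The sort was set beside the mark at genes of the cell surface and of other fetal liver cells. The 7 LT-HSC markers (Kit, Ly6a, Slamf1, Procr, Tek, Ptprc and Cd34) had no promoter peak in any library. Nor did Cd48, whose product the sort excluded, or Ly6g and Cd5, taken here as lineage markers. The methods do not list the full lineage cocktail. Of 7 hepatoblast genes, Krt8 alone was called, in both genotypes, and of 5 endothelial genes only Kdr had a promoter peak, in WT replicate 2. Most protein-coding genes had no promoter peak (3481 of 21951 had one in any library), and none of the genes of the sort markers or of the hepatoblast list was of the high CpG class, so these counts are no result about those genes. A repressive mark is not a measure of purity, so other cells in the sort were not tested by these values.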

How the data were processed

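H3K27me3 CUT&Tag peaks of 3 WT and 3 KO libraries were used as deposited. The authors trimmed reads with Trim Galore 0.6.6, aligned them to GRCm38 with Bowtie2 2.4.4, removed duplicates and called peaks in each library with SEACR 1.3 (stringent, no IgG control, top 0.5%). The deposited values are total signal and maximum signal per peak, in fragment coverage that the authors did not scale to depth. Signal was therefore compared only after centring, and the part of depth in which peaks were called was not tested. The blacklist used is not given in the sources used here. Coordinates are 1-based on GRCm38, with gene models of GENCODE M21.

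A gene was called where at least 2 of 3 libraries had a peak overlapping its promoter window by at least 1 bp. Counts carry no test. The covered share was tested per gene by an exact permutation test, adjusted over all 5048 genes. Log2 total signal, centred on the library median of the 718 shared regions, was tested with limma 3.58.1 (R 4.3.3, Benjamini-Hochberg at 0.05). Both tests were checked on simulated data. Python 3.11.15 was used. All 39 members, paralog pairs and called genes of further lists were named, while the other genes of those lists enter by counts or as examples, and a few are not reported here. The members and lists were chosen with earlier results of these data known.

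Same-numbered WT and KO libraries deviated together (r = 0.277, 0.315 and 0.479 across shared regions for replicates 1, 2 and 3). WT replicate 2 with KO replicate 1 (0.27) and WT replicate 1 with KO replicate 2 (0.116) also did, so replicates 1 and 2 were not clearly separate pairs. Values of replicate 3, of 50 bp reads, with them were negative (-0.441 to -0.281). Deviations from the genotype means cancel out within each genotype, so negative values had to appear and are not read as opposition. A fit with the replicate number as a block was an alternative. Alternatives changed the promoter window, call rule, peak strength, signal measure and scaling, and left out each library.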

Additional observations from a re-analysis of the deposited data

How the results depend on the processing

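With a peak required in all 3 libraries, 6 members were called in WT (6 lineage factors, 0 stem cell factors), against 3.02% of protein-coding genes. With only the 1047 strongest peaks per library, 3 members were called in WT (3 lineage, 0 stem cell) and 5 in KO (5 lineage, 0 stem cell), against 3.54% and 4.1%. Erg was lost in both genotypes (0 stem cell factors) where at least 500 bp of window had to be covered, and in KO (0) with peaks above the library median. Windows of 1 kb, the gene 5′ end and replicates 1 and 2 moved no count of genes called in WT or in KO by over 1.5 times. Taking gene body peaks along with promoter peaks, which can only add calls, left each of these counts unchanged. Leaving out 1 library gave 6 to 14 members and 6 to 13 lineage factors in WT, 12 to 16 and 11 to 15 in KO, and 0 to 1 stem cell factors in WT. The low values in WT came without WT replicate 1 or 2, when WT replicate 3 had to agree. There the share of protein-coding genes called in WT also fell, to 3.3% and 3.08%. Without KO replicates 1, 2 and 3, the members called in KO were 14, 12 and 14. By the same rules 1620, 1687 and 2367 of 21951 protein-coding genes were called in KO, against 2528 with all libraries. In alternatives added after seeing the data, members called in WT alone were 1 with equal peak numbers (0.77% of protein-coding genes). They were 1 with a peak in any library, 1 with the gene 5′ end, 3 with peaks above the median, 1 with 500 bp and 2 with replicates 1 and 2. Those in KO alone were 6 with all 3 libraries (4.51% of protein-coding genes) and 3 with equal peak numbers (1.33%). They were 1 with any, and 3 with peaks above the median, 500 bp or the gene 5′ end. Counts without a share had none computed, so they are no result about the members. Without 1 library, members called in WT alone ranged from 0 to 3 and those in KO alone from 1 to 10. The shares of protein-coding genes ranged from 0.0729% to 3.44% and from 0.733% to 8.51%.

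No region and no member passed the limma threshold in any alternative, and the exact test of cover cannot reach p of 0.05 with 3 against 3. With the replicate block the count of called regions was also 0, and Egr3 had an unadjusted p of 0.0361 (adjusted 0.907), so the pairing changed no call. The direction of the log2 signal difference, which passed no test, reversed at Egr2 (-0.0892 with maximum signal, -0.0885 per covered base), the upstream Ebf1 region (0.0529 per covered base, 0.0635 in replicates 1 and 2), the Ebf1 start (-0.079 and -0.0438 by the same measures as Egr2), Bcl11b (0.111 and 0.177 likewise), Irf4 (-0.0604 scaled by total signal) and Klf4 (-0.235 with maximum signal). Without 1 library it ranged from -0.129 to 0.176 at the upstream Ebf1 region, from -0.00119 to 0.372 at Irf4 and from -0.0278 to 0.895 at Klf4, and without a change of sign from 0.342 to 1.03 at Egr3, -0.909 to -0.342 at Bcl11b, 0.26 to 0.554 at Egr2 and 0.0919 to 0.998 at the Ebf1 start. Cover differences without 1 library ranged from 14.7 to 41.5 percentage points at Egr3, 7.77 to 21.7 at Ebf1 and 20.7 to 50.6 at Batf3. With an equal number of strongest peaks they were -2.42 at Ebf1, 0 at Batf3 and 40.9 at Egr3, over the gene body 0.486, 8.56 and 27.2, and in replicates 1 and 2 Egr3 stood at 9.4. The causes were not tested. Peak calls rest on library medians of 6 to 10 fragments at a peak's maximum, so weak marking cannot be told from none.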

Other observations

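Genes whose products mark the mature lineages were examined beside the factors that switch them on. Of 13 lymphoid products, such as Rag1 and Cd4, 0 were called in WT and 1, the T cell receptor subunit gene Cd3g, in KO, with cover of 0%, 9.08% and 0% in WT and 16.3%, 18.8% and 0% in KO. Of 9 myeloid products, such as Mpo and Elane, and 6 erythroid products, such as Hbb-bt, 0 were called in either genotype. Low-CpG promoters made up 9 of the 13, 5 of the 9 and 4 of the 6, the class in which 1.73% of protein-coding genes were called in WT and 2.04% in KO. Over all classes the shares were 10.1% and 2528 of 21951.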
